A study of Mus musculus with 26 samples.

Results

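The imprinted domain of central mouse chromosome 7 that reaches from *Atp10a* past *Ube3a* and *Snrpn* to *Peg12* was examined in embryonic stem (ES) cells with and without ZFP57. Its 8 genes (*Snrpn*, *Snurf*, *Ube3a*, *Ndn*, *Magel2*, *Mkrn3*, *Peg12* and *Atp10a*) were taken by symbol from a table of 24409 genes, and all 8 were found in it. The choice used gene names and no measured value. Expression came from 3 wild-type (WT) and 2 ZFP57 KO RNA-seq libraries, numbered WT 1 to 3 and KO 1 and 2 after the labels. Both groups were male C57BL/6J ES cells from embryos collected at day 2.5, grown with inhibitors of ERK and GSK3 and with LIF for at most 15 passages. The KO cells came from embryos homozygous for a disruption of the coding exons for the KRAB domain and zinc fingers of ZFP57. The loss was zygotic, so those embryos could still receive ZFP57 from the mother's oocyte. Total RNA was depleted of ribosomal RNA and read as pairs of 150 bp. ZFP57 binding came as a list of 1423 ChIP-seq peaks in C57BL/6J ES cells and as a shorter list of 743 intervals named only as hybrid, all of which are peaks of the first list.

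Imprinted genes are transcribed from the chromosome of a given parent. The mark that sets the parents' chromosomes apart in this domain is DNA methylation at the start of *Snurf* and *Snrpn*, placed in the oocyte and kept on the maternal chromosome after fertilisation. ZFP57 is a KRAB zinc finger protein that binds methylated copies of its recognition sequence and brings in KAP1, a co-repressor that leads to H3K9 methylation. In the best-known pattern *Snurf*, *Snrpn*, *Ndn*, *Magel2*, *Mkrn3* and *Peg12* are transcribed from the paternal chromosome. *Ube3a* is maternal in neurons, where a long paternal transcript that begins near *Snrpn*, *Snhg14*, runs against it, and it is transcribed from both chromosomes in most other cells. In humans, loss of the paternal genes causes Prader-Willi syndrome and loss of maternal UBE3A causes Angelman syndrome.

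ZFP57 had a single listed peak in the whole domain, and it lay on the start of *Snurf*. From the first base of *Atp10a* to the last base of *Peg12* the domain spans 3.81 Mb (chr7:58656142-62464510, GRCm38, the assembly also called mm10, with RefSeq genes). One peak there corresponds to 0.263 peaks per Mb, against 0.536 per Mb over all of chromosome 7, which holds 78 peaks. The peak covers chr7:60004078-60005222, 1145 bp, and is in both lists. Because the hybrid list is a subset and gives no score, its presence there is not an independent replicate. *Snurf* is transcribed from high to low coordinates, and the peak takes in 23 bp before its start, all 164 bp of its exon 1 and 958 bp of its intron 1. *Snrpn* uses this start too, and further starts upstream of it, so the peak lies inside the *Snrpn* span.

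The hexanucleotide TGCCGC, the core of the ZFP57 recognition sequence, was counted on both strands. It occurred 10 times within the peak, or 0.87 times per 100 bp. The median peak of the list held 1 copy and 0.38 copies per 100 bp. Only 4 of the 1423 peaks held more copies than this one, up to 37, while 23 peaks were at least as wide. The domain peak thus ranks high by number of copies, at a width well above the median of 291 bp. An interval of equal width starting 2000 bp lower in coordinates, which here lies further inside *Snurf* and not before its start, held no copy. Over the whole list 92.0% of peaks held at least 1 copy, against 5.55% of intervals placed in this way. Of the 10 copies, 1 crosses the transcription start, 1 is in exon 1 and 8 are in intron 1. The strand of *Snurf* carries 7 of them and the opposite strand 3, and 7 of the 10 are followed by an A. Neighbouring copies were 63 to 253 bp apart, with a median of 82.0 bp. Soft-masked repeats make up 11.9% of the peak, which holds 46 CpG dinucleotides.

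The stretch of intron 1 below is shown because it holds 4 of the copies within 300 bases. It is chr7:60004601-60004900, written 5′ to 3′ along the *Snurf* transcript (minus strand), and capitals mark the hexanucleotide, which reads GCGGCA where the copy is on the other strand.
*Snurf* intron 1: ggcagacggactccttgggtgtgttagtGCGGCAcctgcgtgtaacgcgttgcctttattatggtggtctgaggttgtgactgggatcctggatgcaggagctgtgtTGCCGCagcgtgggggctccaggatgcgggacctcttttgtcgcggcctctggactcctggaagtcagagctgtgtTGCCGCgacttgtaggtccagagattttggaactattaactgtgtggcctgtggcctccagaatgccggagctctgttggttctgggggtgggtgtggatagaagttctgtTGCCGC

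The nearest listed peaks outside the domain were of another kind. On the low side the next peak was 2.78 Mb away, at chr7:57221083-57221329, within an intron of *Gabrg3*. It is 247 bp wide, has 1 copy of the hexanucleotide, is soft-masked over 100% of its length and is in both lists. On the high side the next peak was 3.81 Mb away, at chr7:63810648-63810853, with a width of 206 bp, 1 copy and 68.4% soft-masked sequence, and it is absent from the hybrid list. The bases around the single copy in each are given to show what they share (plus strand, chr7:57221083-57221116 and chr7:63810683-63810724, capitals as above).
Low side: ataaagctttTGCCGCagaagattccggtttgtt
High side: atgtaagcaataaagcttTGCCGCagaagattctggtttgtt
These stretches have a run of 17 bases in common, whereas the longest run either shares with the domain peak is 10 bases.

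**Figure D1:**
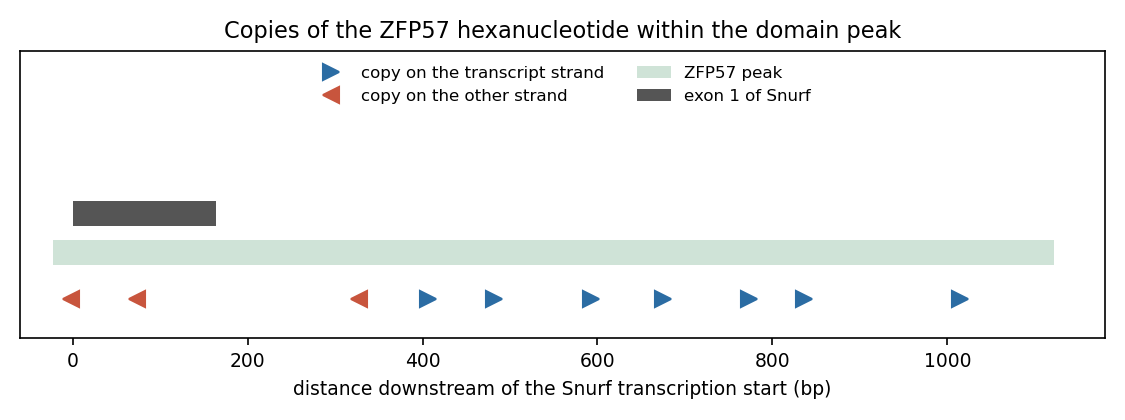
Copies of the ZFP57 hexanucleotide along the domain peak. The horizontal axis gives the distance in bp downstream of the *Snurf* transcription start, the green bar is the peak of 1145 bp, the dark bar is exon 1 of 164 bp, and arrowheads are the 10 copies, pointing right for the 7 on the transcript strand and left for the 3 on the other strand. The 3 copies on the other strand come first, and all 7 on the transcript strand lie in intron 1.

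Both genes at the peak were more strongly expressed without ZFP57, and the 2 genes that were lower lie over 1 Mb from it. Levels are FPKM, fragment numbers scaled by the authors for transcript length and library size. Between genes they compare only roughly, since the counting is not given and overlapping rows may share reads. Changes are log2 fold changes of KO over WT on the log2(FPKM + 0.1) scale, with the standard error (SE), and they understate the change of genes with low levels. They were tested with limma over the 14612 genes whose mean reached 0.1 FPKM, and a gene was called at a Benjamini-Hochberg adjusted p under 0.05. Of the 8 genes 7 could be tested. *Snrpn* and *Snurf* were called higher, *Atp10a* and *Peg12* were called lower, and *Ube3a*, *Ndn* and *Mkrn3* were not called. *Magel2* was below the limit for testing. So many genes passed the test in these libraries that a call alone sets no gene apart: 41.1% of all tested genes were called, 18.8% higher and 22.3% lower. With 3 against 2 libraries an exact permutation test cannot give a p below 0.1 for any single gene. By the study's text RNA was sequenced from the lines used for ChIP-seq, whose WT libraries it calls biological replicates, but whether each numbered RNA-seq library is a line from a separate embryo is not stated, so p-values measure the spread between these libraries, which may in part be technical. In such bulk RNA, fewer cells that express a gene and less RNA per cell cannot be told apart.

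**Figure D2:**
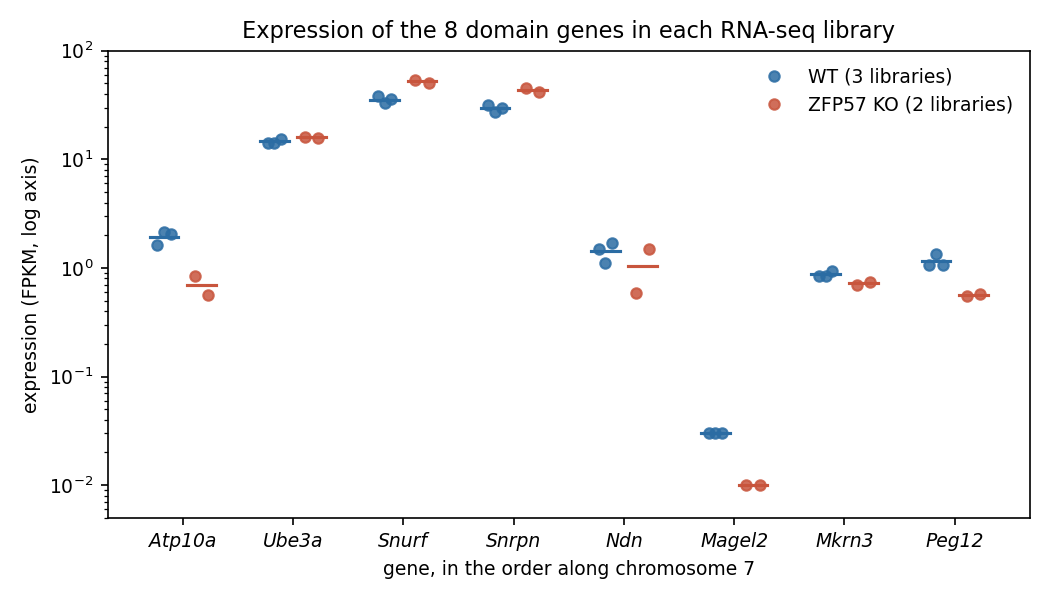
FPKM of the 8 domain genes on a log axis, in the order of the genes along chromosome 7. Each point is a library (blue WT, n = 3; red ZFP57 KO, n = 2) and each bar is the group mean. The KO points lie above all WT points for *Ube3a*, *Snurf* and *Snrpn*, below them for *Atp10a*, *Magel2*, *Mkrn3* and *Peg12*, while for *Ndn* KO 1 lies below them and KO 2 among them.

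*Snurf* and *Snrpn* are the upstream and downstream reading frames of the same transcript. *Snrpn* encodes SmN, a spliceosomal Sm protein, and *Snurf* a short protein of uncertain role. *Snrpn* (chr7:59982495-60450177) measured 31.71, 27.16 and 29.55 FPKM in WT 1 to 3 and 45.05 and 41.80 FPKM in KO 1 and 2. Both KO libraries were above all WT libraries, and the groups were separated by a gap wider than the spread inside either. WT averaged 29.5 ± 2.28 FPKM (SD, n = 3) and KO 43.4 ± 2.30 FPKM (SD, n = 2), which is 1.47 times the WT level. The log2 fold change was 0.56 (SE 0.07, 95% interval 0.38 to 0.73, limma adjusted p = 0.0022). *Snurf* (chr7:59982495-60005199) measured 38.23, 32.72 and 35.66 FPKM in WT and 54.20 and 50.13 FPKM in KO. Again the groups did not overlap, and the log2 fold change of 0.55 (SE 0.07, limma adjusted p = 0.0023) differed little from that of *Snrpn*. The ratio of *Snurf* to *Snrpn* was 1.20 to 1.21 in all 5 libraries. The rows share exons and a constant ratio, so they count as a single measurement and not as 2 genes that rose separately.

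*Ube3a* encodes a ubiquitin ligase of the HECT class and lies 693241 bp from the peak (chr7:59228750-59310837). Its levels were 14.25, 14.22 and 15.41 FPKM in WT and 16.06 and 15.86 FPKM in KO. The KO libraries were just above the highest WT library, and the difference did not pass the test (log2 fold change 0.13, SE 0.05, 95% interval 0.00 to 0.25, limma adjusted p = 0.097). With each library centred on chromosome 7 the value was 0.20 and was called (limma adjusted p = 0.019). Under the other 15 alternatives, where it went down to 0.10, it was not called. Part of *Ube3a* is overlapped by *Snhg14* on the opposite strand, and whether the counting separated the strands is not given in the sources used here, so reads of the pair may be mixed. The ratio of *Ube3a* to *Snrpn* was 0.449 to 0.524 in the WT libraries and 0.356 and 0.379 in the KO libraries. The ratio of *Ube3a* to *Snhg14* was 1.15 to 1.21 in WT and 0.875 and 0.999 in KO. Neither ratio overlapped between the groups.

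*Atp10a* encodes a phospholipid-transporting P-type ATPase, a flippase of the plasma membrane, and it forms the low end of the domain, 1173834 bp from the peak (chr7:58656142-58830244). It measured 1.62, 2.16 and 2.06 FPKM in WT against 0.84 and 0.56 FPKM in KO. Even the lowest WT library had more than the higher KO library. The mean of 1.95 ± 0.287 FPKM (SD, n = 3) fell to 0.70 ± 0.198 FPKM (SD, n = 2) in KO, 0.36 times the WT level, and the log2 fold change was -1.37 (SE 0.20, 95% interval -1.85 to -0.88, limma adjusted p = 0.0032). With a pseudocount of 1 the value was -0.79. With the pseudocount of 0.1 *Atp10a* was the only domain gene that was called and changed by at least 1 on the log2 scale.

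The other 4 genes form a cluster at the high end of the domain, 1346138 to 1460720 bp from the next peak on that side, and all were at low levels. *Peg12*, also called *Frat3*, encodes a GSK3-binding protein of the FRAT family (chr7:62461871-62464510). It measured 1.07, 1.34 and 1.06 FPKM in WT and 0.55 and 0.58 FPKM in KO, without overlap. The log2 fold change was -0.91 (SE 0.15, 95% interval -1.27 to -0.55, limma adjusted p = 0.0049), with means of 1.16 ± 0.159 FPKM in WT (SD, n = 3) and 0.565 ± 0.0212 FPKM in KO (SD, n = 2). With a pseudocount of 1 it was -0.46 and still called. *Mkrn3*, for a makorin RING finger protein (chr7:62417593-62420153), measured 0.85, 0.85 and 0.93 FPKM in WT and 0.69 and 0.75 FPKM in KO. Its groups did not overlap either, but the log2 fold change of -0.25 (SE 0.13, 95% interval -0.56 to 0.06) was not called (limma adjusted p = 0.16). It was called when the variance was fitted without a trend on the mean (limma adjusted p = 0.049). Under the other 14 alternatives it was not called, and the values ranged from -0.30 to -0.11.

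*Ndn*, for the MAGE family protein necdin (chr7:62348277-62349928), gave the least certain value. It measured 1.48, 1.11 and 1.69 FPKM in WT, and its KO libraries disagreed, with 0.59 FPKM in KO 1 and 1.51 FPKM in KO 2. The second of these is inside the WT range. The log2 fold change was -0.52 with an SE of 0.37 and a 95% interval of -1.40 to 0.37 (limma adjusted p = 0.30). Without KO 1 it was 0.10, and without KO 2 it was -1.13 and called (adjusted p = 0.033), so the direction rests on KO 1. The remaining MAGE gene, *Magel2* (chr7:62376979-62381640), which encodes a partner of TRIM ubiquitin ligases, was listed at 0.03 FPKM in every WT library and 0.01 FPKM in both KO libraries. On the scale of fragments given in the next paragraph this is about 7 or 8 fragments per WT library and 2 or 3 per KO library, each ± 1 from the rounding of the table. No fold change is given for it.

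The precision behind these low levels can be read from the table. For genes under 130 bp, FPKM times length fell on regular steps, and 91.3 to 94.6% of the values up to 10 steps were within 0.1 of a whole number. Read as single fragments, the steps correspond to 50700000 to 58800000 fragments per library. On this scale, with gene span taken as length, *Ndn* rested on 134, 108 and 142 fragments in WT and on 51 and 137 in KO. *Peg12* rested on 155, 208 and 142 against 76 and 84 fragments, and *Mkrn3* on 120, 128 and 121 against 92 and 106.

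Among the 7 tested genes the KO libraries were above all WT libraries for 3, against 30.3% of all tested genes, and below all WT libraries for 3, against 33.1%. *Snrpn* and *Snurf* are 2 of the 3 genes above. The median log2 fold change of the 7 was -0.25, and with *Snurf* left out as the same measurement it was -0.38 over 6, beside -0.01 for all tested genes and 0.00 for the 1164 tested genes of chromosome 7, of which 36.6% were called. Only *Snrpn* and *Snurf* had a peak within 20 kb, and widening the distance to 50 kb added none.

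**Figure D3:**
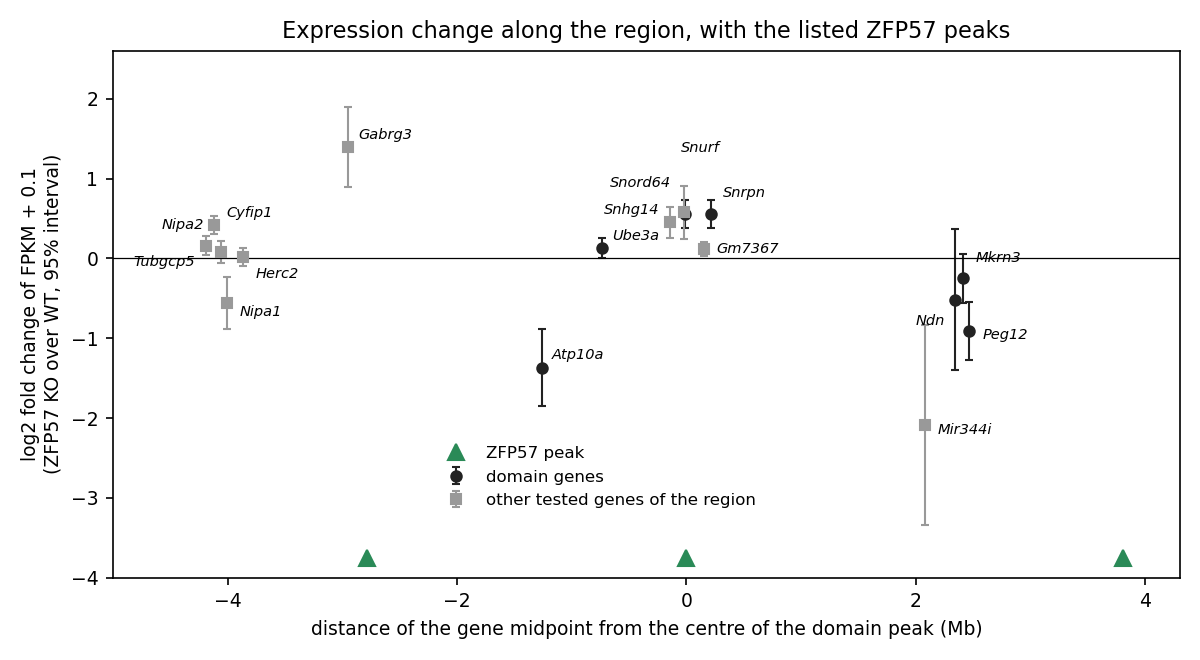
Expression change along the region. The horizontal axis gives the distance in Mb of each gene's midpoint from the centre of the domain peak, the vertical axis the log2 fold change (KO over WT) with its 95% interval, black circles the 7 tested domain genes, grey squares the other tested genes of the region whose values are given in the text, and green triangles the 3 listed peaks. *Snurf*, *Snrpn*, *Snhg14* and *Snord64* lie together between 0.45 and 0.58 near the peak, while *Atp10a* and *Peg12* lie at -1.37 and -0.91 on either side.

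In WT cells the rows of *Snurf* and *Snrpn*, which count as a single measurement, ranked at the top. All their libraries were above those of *Ube3a*, which came next. *Atp10a*, *Ndn* and *Peg12* followed with overlapping ranges, then *Mkrn3* and *Magel2*. In KO cells the first 3 and the last kept their places, while *Ndn*, *Mkrn3*, *Atp10a* and *Peg12* came between them, with ranges that overlap from each gene to the next in the order. *Atp10a* had a higher mean than *Mkrn3* in WT and a lower mean in KO.

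Of the noncoding transcripts that begin near *Snrpn* or are cut from its host transcript, *Snhg14* and *Snord64* were called higher, and *Snord116*, its copies and *Ipw* were listed at 0 or were under the level for testing. *Snord107* and *Snord115* have no row under these names in the table. *Snhg14*, the long host transcript that runs on from *Snrpn* through the small nucleolar RNA (snoRNA) genes towards *Ube3a*, measured 12.42, 11.77 and 13.20 FPKM in WT and 18.36 and 15.87 FPKM in KO. The groups were apart, and it was called higher (log2 fold change 0.45, SE 0.08, limma adjusted p = 0.0061). *C230091D08Rik*, placed on the same span as *Snhg14*, measured 0.01, 0.03 and 0.03 FPKM in WT and 0.04 and 0.01 FPKM in KO and was under the limit for testing. The *Snhg14* span (chr7:59272737-60450177) takes in all of *Snrpn*, so their rows may share reads. The ratio of *Snhg14* to *Snrpn* was 0.392 to 0.447 in WT and 0.380 to 0.408 in KO, ranges that overlap. *Snord64*, a snoRNA gene of this transcript, measured 50.81, 50.56 and 69.20 FPKM in WT and 82.67 and 85.45 FPKM in KO (0.58, SE 0.14, limma adjusted p = 0.018). At 46 bp it is shorter than a read. It was no longer called without WT 1, WT 2, KO 1 or KO 2 (0.50 to 0.60). *Snord116* and its copies *Snord116l1* and *Snord116l2*, further along the host transcript, were listed at 0 in all 5 libraries. *Ipw*, a noncoding RNA of the same stretch, measured 0.00 to 0.08 FPKM in WT and 0.05 and 0.17 FPKM in KO and was under the limit for testing. *Gm7367*, a pseudogene inside the *Snrpn* span whose reads may belong to its parent gene, had a called change of 0.12 (limma adjusted p = 0.042) that was lost whichever single library was left out (0.10 to 0.14).

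Beyond the domain on the low side, *Gabrg3* was called higher from a very low level. It encodes the gamma 3 subunit of the GABA-A receptor and holds the next ZFP57 peak in an intron. It measured 0.04, 0.06 and 0.07 FPKM in WT and 0.30 and 0.32 FPKM in KO (1.39, SE 0.21, 95% interval 0.89 to 1.89, limma adjusted p = 0.0035), at a level that stayed far below that of *Snrpn*. All 3 WT libraries were under 0.1 FPKM, so it reached the mean needed for testing only through the KO libraries, where it is high. Its value also depends on the pseudocount, with 2.29 at 0.01 and 0.31 at 1, both called. Further out on this side, *Cyfip1*, for a partner of the fragile X protein and the WAVE complex, rose from 13.65, 12.89 and 13.28 FPKM to 18.04 and 17.47 FPKM (0.42, limma adjusted p = 0.0012). *Nipa1*, for a magnesium transporter, fell from 1.00, 1.11 and 1.01 FPKM to 0.73 and 0.62 FPKM (-0.56, limma adjusted p = 0.019), a call lost without WT 2, WT 3 or KO 2 (-0.58 to -0.46). *Tubgcp5*, for a gamma-tubulin complex protein, had a called change of 0.16 that passed narrowly (adjusted p = 0.048) and was lost whichever single library was left out (0.14 to 0.18). *Nipa2* and *Herc2* were at 0.08 and 0.02 and were not called.

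Between *Snrpn* and *Ndn* lies a run of *Mir344* hairpin genes, most of which were listed at 0 in every library. *Mir344i* was called lower (-2.09, limma adjusted p = 0.021), from 0.62, 0.96 and 0.45 FPKM to 0.00 and 0.21 FPKM. Over its 88 bp these values correspond to 3, 5 and 2 fragments in WT and to 0 and 1 in KO, and it was not called without WT 1, WT 2 or KO 1 (-2.12 to -1.27). With a pseudocount of 0.01 the value was -3.80 and not called, and with 1 it was -0.60 and called. Of 42 named or neighbouring genes 37 were in the table and 15 could be tested, and 6 were higher and 2 lower, 53.3% called with a median of 0.16, beside 41.1% of all tested genes (18.8% higher and 22.3% lower). These 15 include *Gabrg3*, which reached the level for testing only through the KO libraries. With no filter on low values 8 of 25 neighbours were called, beside 5752 of all 19757 genes. *B230216N24Rik*, which is among the 15 by name and was not called, is placed on chromosome 1 by RefSeq. Of the 14 on chromosome 7, 57.1% were called, beside 36.6% of all tested genes of the chromosome.

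The products of the domain genes belong to larger families and work with partners, whose genes were followed as well. Of 46 relatives and partners 41 could be tested, and 8 were higher and 6 lower (34.1% called, beside the 41.1% of all tested genes), with a median log2 fold change of 0.04. The 7 Sm proteins of the spliceosomal ring, the setting in which SmN works, gave *Snrpg* (0.36, limma adjusted p = 0.03) and *Snrpe* (0.18) higher and *Snrpd3* (-0.12) lower. *Snrpb*, whose product SmB is the one that SmN can replace, measured 40.18, 41.87 and 44.50 FPKM in WT and 44.41 and 42.06 FPKM in KO, and was not called (0.04, adjusted p = 0.63). The ratio of *Snrpn* to *Snrpb* was 0.649 to 0.789 in WT and 0.994 and 1.01 in KO, without overlap. The calls of the Sm genes were narrow: *Snrpg* (then 0.28 to 0.41) and *Snrpd3* (-0.13 to -0.09) lost theirs when any of 4 single libraries was left out, and *Snrpe* (0.15 to 0.17) without WT 3 or KO 2. For *Snrpg* the library that could be left out was WT 2, and for *Snrpd3* it was KO 1.

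Of the 12 HECT ligases related to *Ube3a*, *Wwp1* (0.49, limma adjusted p = 0.0013) and *Nedd4* (0.22) were higher, and *Nedd4l* (-0.59, adjusted p = 0.0048), *Smurf2* (-0.52) and *Itch* (-0.18) were lower. The 2 closest in name, *Ube3b* and *Ube3c*, were both at 0.12 and not called. Of 6 tested MAGE genes and partners, *Maged2* was higher (0.32) and *Maged1* lower (-0.35). Neither of the other makorins was called. Of the FRAT genes and the GSK3 kinases that they bind, *Frat1* and *Frat2*, which resemble *Peg12*, were not called, and *Gsk3b* was higher (0.31, limma adjusted p = 0.0031). The culture medium of both groups contained a GSK3 inhibitor. Of 10 tested flippase genes and their CDC50 partners, *Atp9b* (0.32) and *Atp8a1* (0.29) were higher and *Atp9a* was lower, from 6.70, 5.98 and 6.65 FPKM to 3.83 and 4.28 FPKM (-0.66, limma adjusted p = 0.002). None of these relatives reached a change of 1 on the log2 scale. With a single library left out, *Itch* (-0.19 to -0.16) kept its call only without WT 2 and *Maged2* (0.30 to 0.32) only without WT 3. *Atp8a1* (0.27 to 0.31) lost its call whichever library was left out, and *Maged1* lost it without KO 2 (-0.29).

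**Figure D4:**
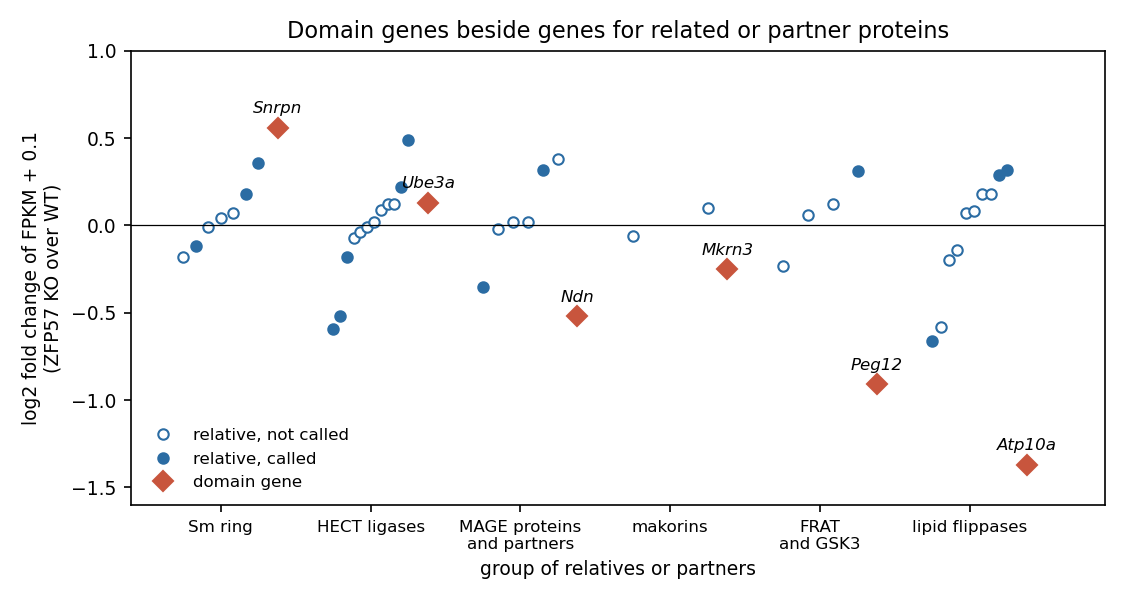
Log2 fold change (KO over WT) of relatives and partners of the domain genes, by group. Circles are tested relatives, filled where called, and red diamonds the domain gene each group was built around. *Snrpn* at 0.56 lies above all 7 Sm genes, *Peg12* at -0.91 below all FRAT and GSK3 genes and *Atp10a* at -1.37 below all 10 flippase genes.

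By their profile over the 5 libraries, and leaving out the domain genes themselves, the genes most like *Snrpn* were *Pcnxl3*, *Rpusd2* and *Mid1*, with Pearson r of 0.9995, 0.9985 and 0.9973, and those most like *Atp10a* were *Adam17*, *Mir466f-2* and *Hnrnph1*, with 0.9993, 0.9992 and 0.9992. The domain genes aside, none of these lies on chromosome 7. With 5 libraries in 2 groups such values are common: among 10659 genes, 672 had an r of at least 0.95 with *Snrpn* and 1193 with *Atp10a*.

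Values that describe the libraries as a whole stand beside these results. *Zfp57* measured 70.55 to 75.94 FPKM in WT and 19.00 and 21.62 FPKM in KO, which matches the labels, although deleted and remaining exons are not separated. The summed FPKM of 7 pluripotency markers was 641.53 to 660.83 in WT and 723.88 and 783.42 in KO, with *Klf4*, *Esrrb*, *Tfcp2l1* and *Pou5f1* called higher and *Nanog*, *Sox2* and *Zfp42* not called. *Nanog* was at -0.11 with both KO libraries below all WT libraries (adjusted p = 0.095). The 4 mesoderm markers summed to 0.92 to 1.41 in WT and 3.30 and 3.43 in KO, with *T* and *Eomes* called higher. Most of that rise is *Eomes* (0.497 to 2.26 FPKM by mean), which is also among the trophectoderm markers, while *Mixl1* was at -0.02 and *Mesp1* at 0 in both KO libraries. Among 7 neural markers, the cell type in which this domain is best studied, the sums overlapped at 12.86 to 15.26 and 10.62 and 15.29, *Sox1* was called higher, having reached the level for testing only through the KO libraries, and *Dcx* was listed at 0 in all libraries. *Tubb3*, which makes up most of these sums, was at -0.32, *Pax6* at 0.08, *Map2* at 0.49 and *Neurod1* at 0.50, and none of them was called. *Rbfox3*, under the level for testing, measured 0.08 to 0.09 FPKM in WT and 0.02 and 0.03 FPKM in KO. The 6 primitive endoderm markers summed to 0.66 to 0.84 in WT and 0.54 and 0.64 in KO, and the 6 fibroblast markers to 0.61 to 0.69 and 0.52 and 0.94 with *Col3a1* and *Lum* at 0. The 6 trophectoderm markers summed to 16.22 to 18.36 in WT and 14.44 and 16.20 in KO. That sum is mostly *Tfap2c*, called lower (-0.44), and *Eomes* was called higher (2.00). *Cdx2*, *Gata3* and *Krt7* were not called, the first 2 having reached the level for testing only through the KO libraries, and *Elf5* was under it, with 0.01 to 0.06 FPKM in WT and 0 in KO. The part of these shifts in the changes of the domain genes was not tested.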

How the data were processed

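The authors deposited gene expression as FPKM rounded to 2 decimals, and ZFP57 peaks as mm10 positions without a score, called in at least 2 WT replicates. Per the labels, the submitters' processing notes name FastQC 0.11.5, Trim Galore 0.2.7, BWA 0.6.2, Picard, MACS2 2.1.0 and STAR 2.5.2, with no role given. The counting, its annotation and strand setting are not given in the sources used here, and neither is how the hybrid list was made. Depth is not given. It was inferred for the RNA-seq libraries from the steps between FPKM values of short genes, and no count test was run. The depth of the ChIP-seq is unknown.

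Genes were placed on GRCm38.p6 by RefSeq symbol (23192) or synonym (1096). Promoters were taken as 250 bp before to 50 bp after a RefSeq start, and 1 of the 10 member promoters held the hexanucleotide, the one at the peak, against 11.6% of 32817 promoters. A gene entered the test if its mean over the 5 libraries reached 0.1 FPKM. Values were transformed as log2(FPKM + 0.1) and fitted with limma (lmFit, eBayes with trend), 3 WT against 2 KO libraries, with Benjamini-Hochberg adjustment over all 14612 genes. The test was checked on simulated data. Alternatives covered pseudocounts, filters, scaling, the variance model, a replicate block, thresholds and single libraries left out. By rule all 8 domain genes were named, with called neighbours and relatives and those with a mean of at least 1 FPKM. Some of the latter are given as counts only. Other genes that were not called or not tested (*Frat1*, *Frat2*, *Ipw*, *Snord116*, *B230216N24Rik*, *C230091D08Rik*) were named after their values were seen. The members, lists and tests were chosen with earlier results of these data known. Fits ran in limma 3.58.1 under R 4.3.3, and tables and plots were made with pandas 2.3.3, numpy 2.4.6 and matplotlib 3.10.9 under Python 3.11.15. ChIP-seq other than the ZFP57 peaks was not analysed here, and 1 neighbouring gene is counted but not reported here.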

Additional observations from a re-analysis of the deposited data

How the results depend on the processing

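*Snrpn* and *Snurf* stayed higher and *Peg12* and *Atp10a* lower, and called, under all 16 alternatives that gave them a value (15 for *Peg12*, which a minimum mean of 1 FPKM removed along with *Mkrn3*). The log2 fold change ranged from 0.50 to 0.63 for *Snrpn* and *Snurf*, from -1.01 to -0.46 for *Peg12* and from -1.62 to -0.79 for *Atp10a*. Asking also for a change of at least 1 left 1 of the 4 called domain genes. Of the 15 tested neighbours 8 were called, but 5 of 8 tested with a minimum mean of 1 FPKM and, of the 15, 5 without a trend on the mean, 5 with trend and robust variances, 2 with a change of at least 1, 3 at an adjusted p under 0.01, and 3 to 6 with a library left out (3 of 15 without WT 2, 4 of 13 tested without WT 1, 4 of 14 without KO 2, 5 of 15 without KO 1). Of the 41 relatives 14 were called, but 0 with a change of at least 1, 7 at an adjusted p under 0.01, and 8 to 13 with a library left out (8 without KO 2, 9 without WT 1, 9 without WT 3). The causes were not tested. Relatives called higher against lower were 8 to 6, but 12 to 4 with chromosome 7 centred and 7 to 8 with equal medians. Over all genes 6002 were called, but 3012 under the replicate block. Without a trend on the mean 5331 of all genes were called, and with trend and robust variances 6058. Without WT 1, WT 2 or WT 3 the calls over all genes were 4628, 4753 and 4257. With a minimum mean of 1 FPKM they were 4890 of 10664. Fewer calls with a WT library left out are thus not particular to the neighbours and relatives. *Ndn* ranged from -1.13 to 0.10 and *Snrpb* from 0.00 to 0.08 with a library left out, both changing sign without KO 1, and *Herc2* turned to -0.01 with equal medians. Over the 24 other genes run under the alternatives (the called neighbours and relatives, *Herc2* and *Snrpb*) 77 of 381 alternative values lost their call and 2 changed sign. With the replicate number as a block the domain genes called were still 4, and the relatives 7. Only 2 numbers are shared, and the deviations of same-numbered libraries had r of -0.068 and -0.036. The deviations of 2 KO libraries from their mean mirror each other, so these values are not separate checks and cannot settle the pairing. The main test did not use the numbers as pairs. Scalings moved the median log2 fold change of all genes to between -0.04 and 0.06. *Magel2* and *Mir344i* rest on at most about 8 fragments in any library.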
